A study of Mus musculus with 2 samples.

Results

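The CXCR3 and CXCR6 chemokine axes were represented by 5 genes, chosen by name and covering 2 receptors and 3 of their ligands, out of the 32285 genes measured. Cxcl9, Cxcl10 and Cxcl16 encode ligands, and Cxcr3 and Cxcr6 encode receptors. Transcripts were counted cell by cell with a 10x droplet assay in immune cells taken from mouse tumours on day 14 after inoculation of MC38, a colon adenocarcinoma cell line of the mouse. One library came from untreated mice of the Ifnar1-SA genotype and 1 from untreated wild-type mice (WT). Ifnar1 codes for one of the subunits that bind type I interferons, and the meaning of SA is not spelled out in the labels. The sources used here give no age, strain, number of animals per library or cell sorting. With 1 library per genotype there is no replicate check, so "higher" and "lower" describe these libraries, no difference was tested, and every interval is a 95% interval that covers counting error only.

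Each unit counted is a unique molecular identifier (UMI), which stands for 1 captured transcript. The Ifnar1-SA library held 62732220 UMIs and 5001 kept cells with a median of 7176 UMIs, and the WT library held 55497066 UMIs and 4058 kept cells with a median of 8016.5 UMIs. The libraries shared 7 kept cell barcodes. The labels call the cells CD8 T cells, but T cell genes and Cd8a or Cd8b1 together were found in a minority, and cells were therefore assigned to gates by marker UMIs. The CD8 T gate (T cell receptor complex genes with Cd8a and Cd8b1) held 701 Ifnar1-SA and 1012 WT cells, the regulatory T (Treg) gate (T cell genes with Foxp3) 504 and 344, and the remaining T cells 567 and 438. The macrophage gate (at least 20 UMIs of C1qa, C1qb and C1qc) held 1647 Ifnar1-SA and 1286 WT cells. A C1q-low myeloid gate (Ly6c2, Plac8 and Lyz2) held 379 and 205, and a gate on Rhox5, Tm4sf1 and Sdc2 held 189 and 167. The remaining T cells also held transcripts of Treg markers: Ctla4, one of them, stood at 821 counts per 1000000 UMIs of the gate (CPM) in Ifnar1-SA and 875 CPM in WT there, against 1720 and 1615 CPM in the Treg gate.

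The gate on Rhox5 was meant to hold tumour cells, but its markers were mixed. Krt18, Krt19 and Epcam, which mark epithelial cells, had no UMI there in either library, and Krt8, another such gene, had 1 UMI, in Ifnar1-SA. Ptprc, the gene of the leukocyte antigen CD45, had 2.06 CPM in Ifnar1-SA and 1.86 CPM in WT. The fibroblast genes checked were uneven. Col3a1 had 1631 and 1886 CPM and Dcn 507 and 707 CPM, but Col1a1 had 20.9 and 115 CPM and Pdgfrb 9.27 and 10.8 CPM. Neither Xist nor a Y-linked UMI was seen in 177 of 189 Ifnar1-SA and 161 of 167 WT cells of that gate, although its median depth was 49264 and 50042 UMIs per cell. It is called the Rhox5 gate here. Droplets that passed more than 1 of the 4 main gates, or held T cell genes with either of the non-lymphoid gates, were set apart as mixed. They made up 14.3% of Ifnar1-SA and 8.97% of WT cells, and most of them, 668 of 715 and 315 of 364, joined T cell with macrophage transcripts.

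CXCR3 is carried by activated T helper 1, cytotoxic and some regulatory T cells and draws them along gradients of CXCL9 and CXCL10. Interferon gamma induces both ligands, and Cxcl10 also answers type I interferon and NF-kB. CXCR6 binds CXCL16, a chemokine made as a membrane protein of myeloid cells and released by the proteases ADAM10 and ADAM17, and is known as a marker of effector and tissue-resident T cells. Cxcl9 (ENSMUSG00000029417, chr5:92321347-92328079) and Cxcl10 (ENSMUSG00000034855, chr5:92346638-92348889) lie on the minus strand of mm10 with 18558 bases between them. Cxcl16 (ENSMUSG00000018920) lies at chr11:70453983-70459984, Cxcr3 (ENSMUSG00000050232) at chrX:101731535-101734269 and Cxcr6 (ENSMUSG00000048521) at chr9:123806475-123811760. All 5 are protein-coding.

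The promoters of the neighbouring Cxcl9 and Cxcl10 genes are shown because both ligands were high in the same gates and because Cxcl10 is known to respond to type I interferon as well as to interferon gamma. RefSeq (GRCm38.p6) gave promoter sequence for 4 of the 5 genes, Cxcl16 being the other. The 250 bases before the transcription start were searched on both strands for the interferon-stimulated response element core GAAANNGAAA, the gamma-activated site TTCNNNGAA and the NF-kB motif GGGANNTTCC. Matches are in capitals, and both sequences run 5′ to 3′ on the minus strand, at chr5:92328080-92328329 for Cxcl9 and chr5:92348890-92349139 for Cxcl10.
Cxcl9: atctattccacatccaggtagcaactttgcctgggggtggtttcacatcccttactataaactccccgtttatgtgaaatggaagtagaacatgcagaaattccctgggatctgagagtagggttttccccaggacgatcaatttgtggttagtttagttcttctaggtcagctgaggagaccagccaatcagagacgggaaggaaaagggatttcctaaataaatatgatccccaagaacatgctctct
Cxcl10: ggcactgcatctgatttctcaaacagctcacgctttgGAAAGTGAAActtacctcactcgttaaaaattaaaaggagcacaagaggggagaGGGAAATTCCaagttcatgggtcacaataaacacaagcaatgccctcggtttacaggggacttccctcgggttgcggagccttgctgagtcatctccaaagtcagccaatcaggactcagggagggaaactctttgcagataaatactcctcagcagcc
Cxcl10 held 1 response element core, GAAAGTGAAA, at 213 to 204 bases before the start, and 1 NF-kB motif, GGGAAATTCC, at 159 to 150 bases before it. The Cxcl9 window had no match to the patterns as written here, and neither did those of Cxcr3 and Cxcr6. Other spellings of these motifs were not searched for in any window. Among 32536 promoter windows of that length, 2.98% held the response element core, 7.04% the gamma-activated site and 1.21% the NF-kB motif.

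Macrophages held the largest part of the UMIs of all 3 ligands, nearly equalled in WT by the Rhox5 gate for Cxcl10, while the Rhox5 gate held almost no Cxcl16. Of all kept UMIs, macrophages held 33.3% in Ifnar1-SA and 33.2% in WT. Macrophages held 55.7% of Cxcl9 UMIs in kept Ifnar1-SA cells and 56.1% in WT, and 41.9% and 39.0% of Cxcl10 UMIs. They held 62.8% of Cxcl16 UMIs in Ifnar1-SA and 71.7% in WT. The Rhox5 gate, with 18.2% and 19.3% of all kept UMIs, contributed 24.1% of Cxcl10 UMIs in Ifnar1-SA and 37.9% in WT. Its part of Cxcl9 was 8.37% in Ifnar1-SA and 17.6% in WT, and its part of Cxcl16 0.188% and 0.0603%. Mixed droplets, with 22.9% of all kept UMIs in Ifnar1-SA and 15.5% in WT, held 26.7% and 17.7% of Cxcl9 UMIs. The parts of the other classes therefore depend on where these droplets are placed. The plot of cell gates that held each gene's UMIs sets these parts side by side.

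**Figure D1:**
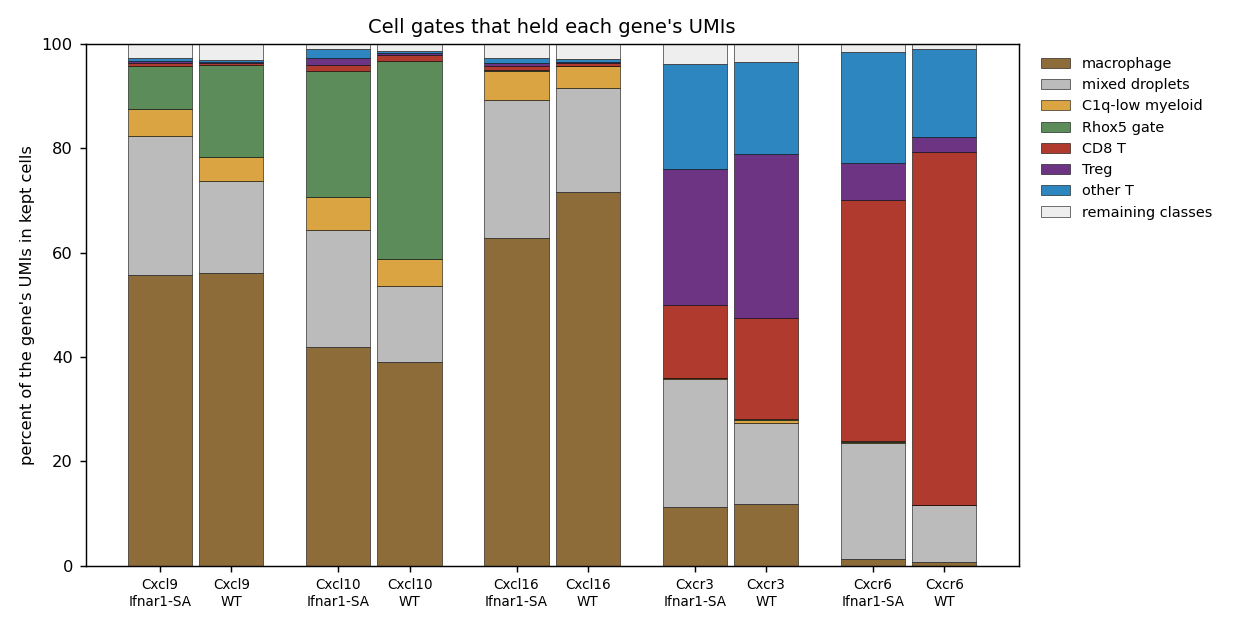
Percent of each gene's UMIs in kept cells (vertical axis) held by each cell gate (colours), with 1 bar per gene and library, Ifnar1-SA left of WT. Macrophages lead for the 3 ligands, the Rhox5 gate is a source of Cxcl9 and Cxcl10 only, and Cxcr6 lies mostly in T cell gates.

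Among macrophages, Cxcl9 was modestly lower, Cxcl10 close to even and Cxcl16 slightly higher in Ifnar1-SA. Cxcl9 stood at 1034 CPM in Ifnar1-SA and 1253 CPM in WT macrophages, a log2 ratio of Ifnar1-SA over WT of -0.28 (-0.31 to -0.25). Cxcl10 stood at 668 CPM in Ifnar1-SA and 712 CPM in WT, a log2 ratio of -0.09 (-0.13 to -0.06). Cxcl16 stood at 749 and 678 CPM, a log2 ratio of 0.14 (0.11 to 0.18). None of the 3 reached the 1.5-fold difference used as the limit for a call, where 0.922% of 2495 measured genes were higher and 1.32% lower by that much. A gene counted as measured if it reached 50 CPM in at least one library and the libraries together held 30 UMIs or more. The C1q-low myeloid gate had the same order of log2 ratios. Cxcl9 had 878 CPM in Ifnar1-SA and 1231 CPM in WT cells of that gate, with a log2 ratio of -0.49 (-0.59 to -0.39). Cxcl10 had 949 and 1140 CPM, with a log2 ratio of -0.26 (-0.36 to -0.16), and Cxcl16 had 626 and 485 CPM, with a log2 ratio of 0.37 (0.23 to 0.51). None of these reached 1.5-fold either, against a background of 5.79% higher and 3.47% lower.

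Split by Mrc1, Folr2 and F13a1, macrophages differed in Cxcl9 in WT and were nearly even in Ifnar1-SA. Those with at least 3 UMIs summed over Mrc1, Folr2 and F13a1, genes of scavenging and tissue-resident macrophages, had 1014 CPM of Cxcl9 in Ifnar1-SA and 1018 CPM in WT, a log2 ratio of -0.01 (-0.06 to 0.04). Those with fewer had 1043 CPM in Ifnar1-SA and 1463 CPM in WT, a log2 ratio of -0.49 (-0.52 to -0.45). Cells with fewer than 3 such UMIs, which may have 1 or 2, were 80.4% of Ifnar1-SA and 62.0% of WT macrophages, and the difference between these ratios was not tested. Cycling macrophages had more Cxcl10 than the rest in both libraries, at 992 against 569 CPM in Ifnar1-SA and 919 against 640 CPM in WT. Cxcl16 varied less among these subsets, between 621 and 790 CPM over all of them in both libraries.

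In the Rhox5 gate both CXCR3 ligands were lower in Ifnar1-SA, by more than in the myeloid gates. Cxcl9 stood at 285 CPM in Ifnar1-SA and 678 CPM in WT, a log2 ratio of -1.25 (-1.31 to -1.18), or 2.38-fold higher in WT. Cxcl10 stood at 704 CPM in Ifnar1-SA and 1193 CPM in WT, a log2 ratio of -0.76 (-0.80 to -0.72), or 1.69-fold higher in WT. In that gate 1.3% of 2857 measured genes were lower by at least 1.5-fold and 0.175% higher, and 2 of the 2 measured ligands were lower. Cxcl9 was past 1.5-fold under 9 of 9 alternative settings, with log2 ratios from -1.54 to -0.97, and Cxcl10 under 6 of 9, from -0.80 to -0.47. Of 16 other chemokines listed, 4 were measured in the gate, with a median log2 ratio of 0.14 against 0.04 over all measured genes. In Ifnar1-SA 3 of the 4 were higher, none by 1.5-fold, and 1 was lower by that much. The lower one was Ccl5, a chemokine for T cells that is also induced by interferon, at 103 CPM in Ifnar1-SA and 230 CPM in WT. Other markers moved with the ligands: the fibroblast genes Col1a1 and Dcn had 20.9 and 507 CPM in Ifnar1-SA and 115 and 707 CPM in WT, and their part in the result was not tested. Cells of the gate with only Xist UMIs, 10 in Ifnar1-SA and 6 in WT, held 68 of its 2766 Cxcl9 UMIs in Ifnar1-SA and 983 of 6207 in WT. In the cells with neither Xist nor Y-linked UMIs, Cxcl9 stood at 296 CPM in Ifnar1-SA and 593 CPM in WT. The near-empty barcodes had 457 CPM of Cxcl9 in Ifnar1-SA and 520 CPM in WT. The 3 C1q genes, which mark macrophages, summed to 32.8 CPM in Ifnar1-SA and 30.5 CPM in WT in the Rhox5 gate, and to 7983 CPM in Ifnar1-SA and 8223 CPM in WT in the near-empty barcodes. Cxcl16 had 40 UMIs in Ifnar1-SA cells of the gate, 16 of them in 1 cell, and 9 UMIs in WT cells, below the minimum for a measured gene.

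**Figure D2:**
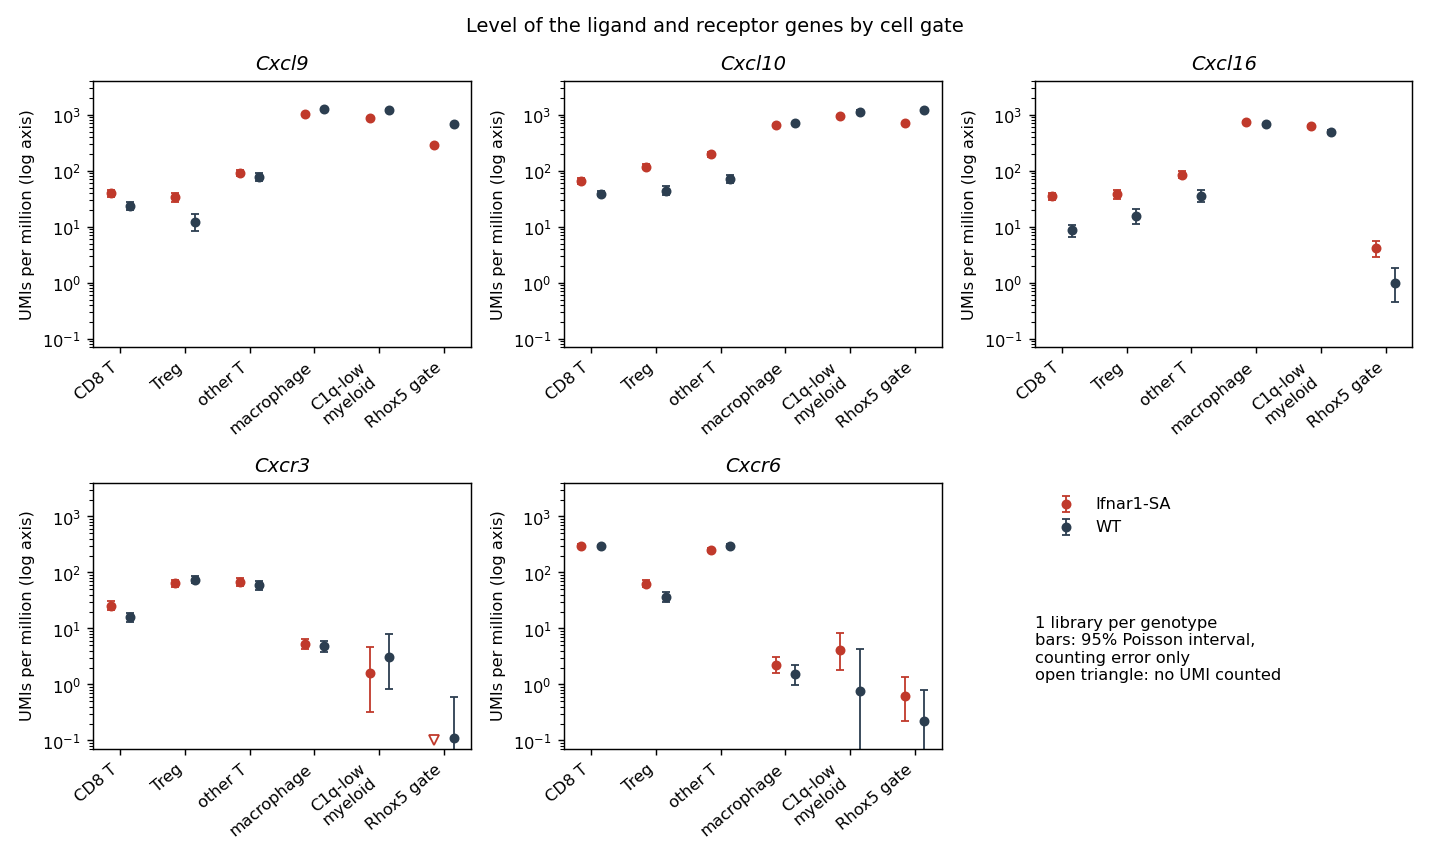
Level of each gene in 6 cell gates, in CPM (log axis), for Ifnar1-SA and WT, with 95% Poisson intervals that cover counting error only and an open triangle where no UMI was counted. Cxcl9 and Cxcl10 are high in myeloid cells and the Rhox5 gate, Cxcl16 in myeloid cells, and Cxcr6 is highest in CD8 T and other T cells.

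Cell by cell, Cxcl9 and Cxcl10 UMIs were concentrated in fewer macrophages than Cxcl16 UMIs. The 10% of macrophages with the most UMIs of a gene held 66.2% of Cxcl9 UMIs in Ifnar1-SA and 62.6% in WT, and 70.8% and 65.9% of Cxcl10 UMIs. For Cxcl16 the same 10% of cells held 25.8% of UMIs in Ifnar1-SA and 24.5% in WT. At least 1 Cxcl16 UMI was found in 96.7% (95.7% to 97.5%) of Ifnar1-SA and 95.5% (94.2% to 96.6%) of WT macrophages, against 59.9% and 62.0% for Cxcl9 and 49.8% and 50.6% for Cxcl10. When each cell was thinned to 2000 UMIs, leaving out 41 shallower Ifnar1-SA and 25 WT macrophages, the shares were 74.2% and 71.0% for Cxcl16, 42.1% and 44.4% for Cxcl9, and 32.4% and 33.0% for Cxcl10. The thinned shares thus lay close together in the libraries for all 3 ligands. In the Rhox5 gate, where Cxcl16 was near 0, the thinned share of cells with a Cxcl16 UMI was 0% of 189 Ifnar1-SA cells, which allows up to 1.59%, and 0.599% of WT cells. In CD8 T cells it was 3.15% and 0.972% for Cxcl16, 3.62% and 2.38% for Cxcl9, and 5.98% and 3.56% for Cxcl10. Median depths before thinning were 10222 UMIs in Ifnar1-SA and 11404.5 in WT macrophages, 49264 and 50042 in the Rhox5 gate, and 5086 and 6004.5 in CD8 T cells.

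In the Rhox5 gate the thinned share of cells with Cxcl9 was 27.0% (20.8% to 33.9%) in Ifnar1-SA and 31.7% (24.8% to 39.4%) in WT, and that with Cxcl10 42.3% (35.2% to 49.7%) and 44.9% (37.2% to 52.8%). These intervals overlapped widely, while the UMIs per positive cell did not lie close: 25.4 in Ifnar1-SA and 59.7 in WT for Cxcl9, and 41.4 and 75.3 for Cxcl10 before thinning. A small set of cells carried the gate's Cxcl9. Cells with at least 20 Cxcl9 UMIs made up 20.6% of the gate in Ifnar1-SA and 25.1% in WT and held 86.4% and 93.9% of its Cxcl9 UMIs. The highest cell had 269 Cxcl9 UMIs in Ifnar1-SA and 699 in WT, and leaving out the 5 highest cells per library gave a log2 ratio of -1.07.

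**Figure D3:**
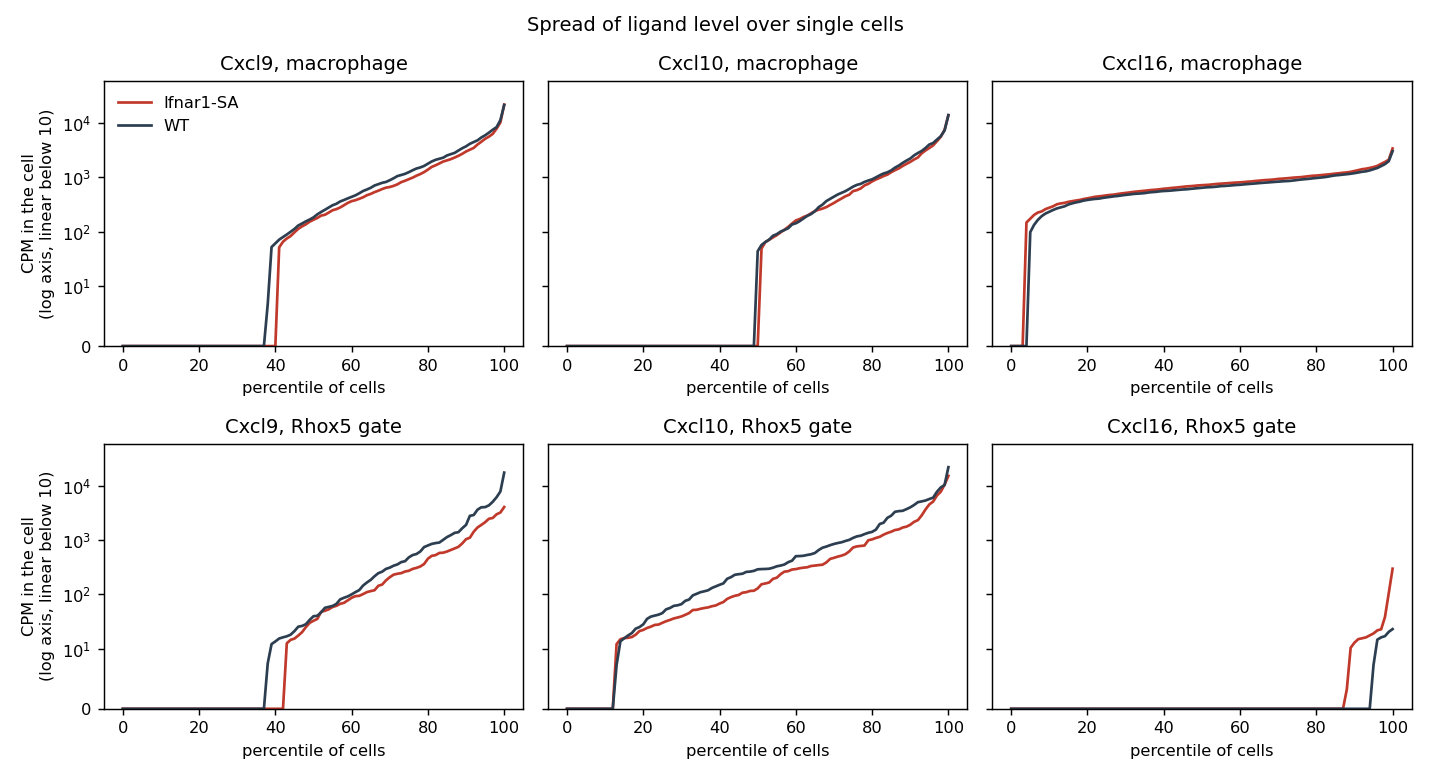
CPM of each ligand in single cells (vertical axis, logarithmic and linear below 10) by percentile of cells (horizontal axis), for macrophages above and the Rhox5 gate below, Ifnar1-SA and WT as lines. Cxcl16 is spread more evenly over macrophages, while Cxcl9 and Cxcl10 climb in the upper percentiles and, in the Rhox5 gate, climb further in WT.

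In macrophages Cxcl10 was found more often in cells with Cxcl9 than in cells without. After thinning, Cxcl10 was present in 36.4% (32.8% to 40.1%) of Ifnar1-SA macrophages with Cxcl9, against 29.6% (26.7% to 32.6%) of those without. The same shares were 41.4% (37.3% to 45.6%) and 26.2% (23.0% to 29.7%) in WT macrophages. In the Rhox5 gate they were 54.9% (40.3% to 68.9%) with Cxcl9 and 37.7% (29.6% to 46.3%) without in Ifnar1-SA, where the intervals overlapped, and 64.2% (49.8% to 76.9%) and 36% (27.2% to 45.5%) in WT. These are shares of cells within 1 library and not replicates of a condition.

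Small dendritic cell gates also held ligand transcripts, with few cells. Migratory dendritic cells (Ccr7, Fscn1 and Ccl22), 39 in Ifnar1-SA and 31 in WT, had 871 and 872 CPM of Cxcl16. Their Cxcl9 had 307 UMIs in 18 Ifnar1-SA cells, 118 of them in 1 cell, and 284 UMIs in 6 WT cells, 232 of them in 1 cell. A level over so few cells rests on that 1 WT cell, and no direction was read from it. Cxcl10 in migratory dendritic cells had 34 UMIs in 9 Ifnar1-SA cells and 66 in 4 WT cells, 57 of the latter in 1 cell. Type 1 dendritic cells (Xcr1, Clec9a and Wdfy4), 26 and 44, had 925 CPM of Cxcl9 in Ifnar1-SA and 1023 CPM in WT, with overlapping intervals, and 311 and 227 CPM of Cxcl16. Their Cxcl10 was lower in Ifnar1-SA, at 256 CPM (203 to 319) against 431 CPM (377 to 490) in WT. It came from 6 and 14 cells, and the highest cell of each library held 42 of 79 and 99 of 233 UMIs.

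Cxcl10 and Cxcl16 UMIs were also counted in T cell gates, where both were higher in Ifnar1-SA, as were macrophage transcripts. Cxcl10 stood at 118 CPM in Ifnar1-SA and 44.1 CPM in WT Tregs, a log2 ratio of 1.43 (1.13 to 1.73), at 197 and 71.7 CPM in the remaining T cells, and at 65.0 and 39.3 CPM in CD8 T cells. Cxcl16 stood at 84.9 CPM in Ifnar1-SA and 36.1 CPM in WT remaining T cells. Among measured genes, 3.66% in CD8 T cells, 4.43% in Tregs and 4.07% in the remaining T cells were higher in Ifnar1-SA by at least 1.5-fold. The ligands called higher were 1 in CD8 T cells and 1 in Tregs, Cxcl10 in both, and 2 in the remaining T cells, Cxcl10 and Cxcl16. With mixed droplets kept in the gates the log2 ratio of Cxcl10 was 0.52 in Tregs and 0.31 in CD8 T cells, both under 1.5-fold, and in the 24 Ifnar1-SA Tregs with Y-linked UMIs alone it was -1.96 against WT. Barcodes with 100 UMIs or fewer, taken as a measure of free RNA, had 362 CPM of Cxcl10 in Ifnar1-SA and 282 CPM in WT, and 301 and 251 CPM of Cxcl16, more than any T cell gate. All 5 macrophage markers checked, Csf1r, Apoe, Ms4a7, Adgre1 and Lyz2, were higher in Ifnar1-SA in each T cell gate, with summed levels of 1028 CPM in Ifnar1-SA and 323 CPM in WT CD8 T cells, 1363 and 445 CPM in Tregs, and 2140.3 and 1499 CPM in the remaining T cells. Apoe, an abundant macrophage transcript, stood at 524 CPM in Ifnar1-SA and 184 CPM in WT CD8 T cells and at 708 and 284 CPM in Tregs. Within Ifnar1-SA CD8 T cells, the 44 with a Cxcl16 UMI had 3535 CPM of Apoe and the 657 without had 188 CPM, and within WT CD8 T cells the 34 with it had 1051 CPM and the 978 without had 146 CPM. For Cxcl10 the pattern was not the same for every macrophage marker in every gate. Ifnar1-SA Tregs with a Cxcl10 UMI had 1197 CPM of Apoe and those without had 581 CPM. WT Tregs with it had 90.8 CPM of Apoe and those without had 312 CPM. Lyz2 and the C1q genes were higher in WT Tregs with it, at 176 against 118 CPM and 147 against 115 CPM. Csf1r was also higher there. The C1q genes stood at 215 CPM in WT remaining T cells with a Cxcl10 UMI and 234 CPM in those without. Apoe in these cells stood at 2188 CPM with it and 612 CPM without, and Lyz2 at 1239 and 551 CPM. Csf1r was higher with it too. Tregs had 61.7 Cxcl10 UMIs per 100 C1q UMIs in Ifnar1-SA and 37.0 in WT, against 4.54 and 3.43 in the near-empty barcodes. The other ligands also stood above their near-empty proportions there. Cxcl16 had 19.8 and 12.8 against 3.77 and 3.06, and Cxcl9 had 17.4 and 10.1 against 5.72 and 6.32. Droplets with 20 or more C1q UMIs had been kept out of these gates, which raises such a proportion, so it cannot tell where the transcripts came from. Whether the T cells made these transcripts was not tested.

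The receptor Cxcr6 was a gene of CD8 T and remaining T cells. Its level was nearly the same in both libraries in CD8 T cells and modestly lower in Ifnar1-SA in remaining T cells. In CD8 T cells it stood at 301 CPM (285 to 317) in Ifnar1-SA and 298 CPM (286 to 310) in WT, a log2 ratio of 0.01 (-0.08 to 0.11) from 1362 and 2353 UMIs. In the remaining T cells it stood at 256 CPM (236 to 277) in Ifnar1-SA and 302 CPM (278 to 328) in WT, a log2 ratio of -0.24 (-0.40 to -0.08). In WT these neighbours in the order of levels did not differ beyond counting error, and in Ifnar1-SA the CD8 T level was higher. Tregs followed at 63.1 and 36.4 CPM, and macrophages were near the floor at 2.25 and 1.52 CPM. After thinning, 43.3% (39.4% to 47.3%) of Ifnar1-SA and 44.1% (40.8% to 47.3%) of WT CD8 T cells had a Cxcr6 UMI, against 0.56% and 0.397% of macrophages, which should lack it. Median depth was 5086 and 6004.5 UMIs in CD8 T cells and 10222 and 11404.5 UMIs in macrophages.

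Although the CPM of Cxcr6 in CD8 T cells was even, the makeup of the libraries was not. CD8 T cells held 46.1% of Cxcr6 UMIs in Ifnar1-SA and 67.7% in WT, where they were 14.0% and 24.9% of kept cells. Mixed droplets, kept out of the CD8 T gate, held 22.2% of Cxcr6 UMIs in Ifnar1-SA and 10.9% in WT. With mixed droplets kept in, the CD8 T gate had 883 of 5001 Ifnar1-SA and 1155 of 4058 WT cells. Tregs held 7.17% and 2.88%. Over all kept cells there were 0.591 Cxcr6 UMIs per cell in Ifnar1-SA and 0.857 in WT. Such counts per cell are not scaled for depth, and CD8 T cells had a median of 5086 UMIs in Ifnar1-SA and 6004.5 in WT.

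In Tregs Cxcr6 was higher in Ifnar1-SA, with a log2 ratio of 0.79 (0.44 to 1.15) from 212 and 100 UMIs. The Treg levels, 63.1 CPM in Ifnar1-SA and 36.4 CPM in WT, lay near those of the near-empty barcodes, 44.9 and 47.0 CPM. In WT the Treg level was the lower of these. Of 3 measured members in that gate, Cxcr6 and Cxcl10 were higher by at least 1.5-fold, where 4.43% of 2960 measured genes were higher and 2.4% lower. The thinned shares were 11.7% (8.96% to 15%) in Ifnar1-SA and 6.17% (3.81% to 9.37%) in WT. Cycling Tregs, defined by Mki67, Top2a and Ube2c, were low in both libraries at 23.5 and 17.2 CPM and were 23.0% of Ifnar1-SA and 35.2% of WT Tregs. Among non-cycling Tregs Cxcr6 stood at 90.1 CPM in Ifnar1-SA and 62.2 CPM in WT, a log2 ratio of 0.53 (0.13 to 0.95), so the difference was smaller there and under 1.5-fold. Over alternative settings the ratio in all Tregs ranged from 0.41 to 1.05 and was past 1.5-fold in 10 of 12. With mixed droplets kept in the gate it was 0.52. After thinning it was 0.41, with an interval of -0.19 to 1.02. Nkg7, a cytotoxic granule gene used here as a CD8 T cell marker, moved with Cxcr6 in the Treg gate, at 564 CPM in Ifnar1-SA and 266 CPM in WT. The other CD8 T cell markers there were low, with Cd8a at 1.49 and 1.09 CPM, Cd8b1 at 7.74 and 9.47 CPM and Gzmk at 0 UMIs in both libraries. The part of Nkg7-positive cells in the result was not tested.

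Among the gates with at least 50 cells in each library, Cxcr3 had its highest level in Tregs and remaining T cells, and was low in CD8 T cells. In Tregs it stood at 64.3 CPM (56.0 to 73.5) in Ifnar1-SA and 74.7 CPM (64.8 to 85.7) in WT, a log2 ratio of -0.22 (-0.50 to 0.07). In remaining T cells it stood at 67.4 CPM (57.6 to 78.5) in Ifnar1-SA and 59.8 CPM (49.4 to 71.8) in WT, a log2 ratio of 0.17 (-0.18 to 0.53). In the 42 Ifnar1-SA cells of that gate with Y-linked UMIs alone it stood at 18.5 CPM, from 3 UMIs, a log2 ratio of -1.69 (-3.99 to -0.11) against the WT cells of the gate. The order of these gates differed between the libraries, and within each library their counting intervals overlapped. In CD8 T cells Cxcr3 stood at 25.6 CPM (21.2 to 30.7) in Ifnar1-SA and 16 CPM (13.3 to 19) in WT, a log2 ratio of 0.68 (0.31 to 1.06) from 116 and 126 UMIs. That level was below the minimum for a measured gene, near the 18.2 and 15 CPM of the near-empty barcodes. The ratio fell under 1.5-fold in 5 of 12 alternative settings, with a lowest value of 0.38. Thinned shares were 5.2% (3.6% to 7.22%) in Ifnar1-SA and 4.32% (3.1% to 5.84%) in WT CD8 T cells, 14.1% and 14.2% in Tregs, and 1.31% and 0.793% in macrophages. No change in the share of Cxcr3-positive cells was detectable at this depth. Plasmacytoid dendritic cells had 81.6 CPM (37.3 to 155) in 15 Ifnar1-SA cells and 29.9 CPM (8.14 to 76.5) in 20 WT cells.

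**Figure D4:**
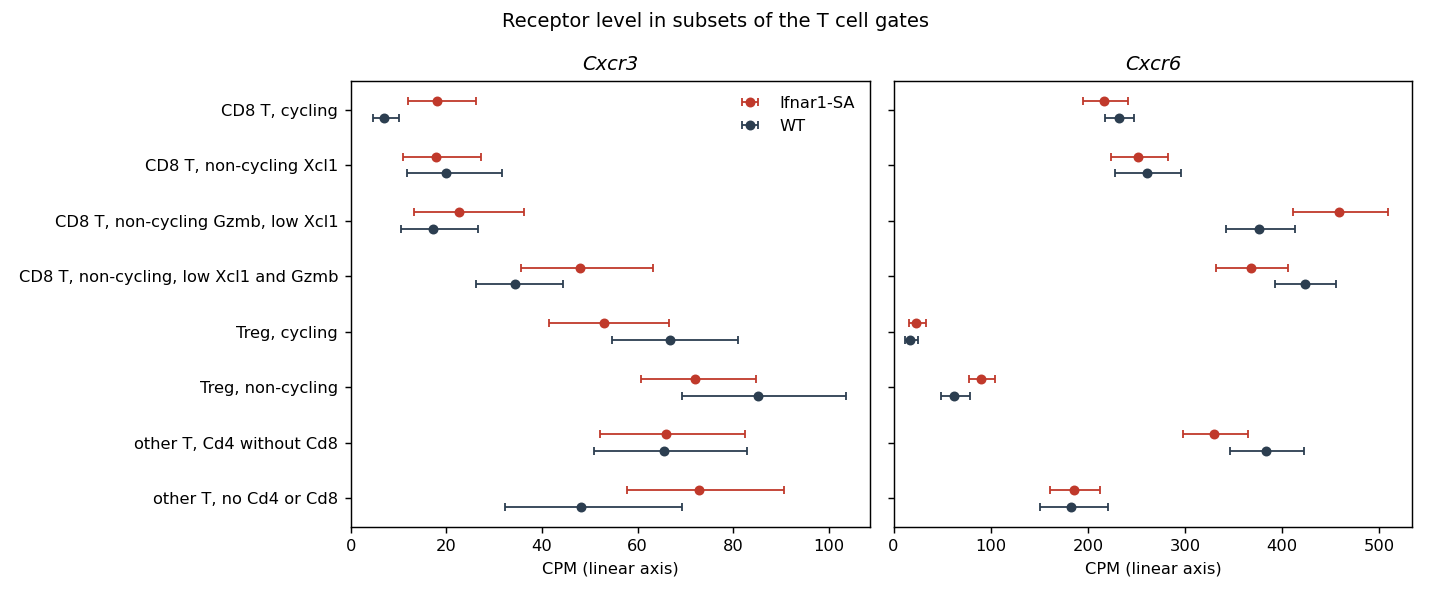
Cxcr3 (left) and Cxcr6 (right) in CPM (horizontal axes, linear) in subsets of the T cell gates, with 95% Poisson intervals for counting error only and Ifnar1-SA above WT. Cxcr6 is lowest in cycling Tregs in both libraries, and Cxcr3 is lowest in cycling CD8 T cells in WT.

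The receptors differed in where they were high among CD8 T cells split by Tcf7 and Havcr2. Cells with Tcf7 and without Havcr2, a combination of stem-like T cells, had 45.8 CPM of Cxcr3 in Ifnar1-SA and 49.2 CPM in WT. Cells with Havcr2, the gene of the inhibitory receptor TIM-3, and without Tcf7 had 10.1 and 7.75 CPM. Cxcr6 stood at 138 CPM in Ifnar1-SA and 153 CPM in WT in the cells with Tcf7, and at 329 and 312 CPM in those with Havcr2. Both libraries therefore showed more Cxcr3 with Tcf7 and more Cxcr6 with Havcr2, although only 45 Ifnar1-SA and 46 WT cells had Tcf7 without Havcr2. Non-cycling cells low in Xcl1 and with at least 5 UMIs of Gzmb, the gene of granzyme B, had 458 CPM of Cxcr6 in Ifnar1-SA and 376 CPM in WT, a log2 ratio of 0.28 (0.08 to 0.49). Non-cycling cells low in both Xcl1 and Gzmb had 368 and 423 CPM, a log2 ratio of -0.20 (-0.39 to -0.02). These offsetting differences were each under 1.5-fold. In cycling cells, 19.97% of Ifnar1-SA and 31.3% of WT CD8 T cells, Cxcr6 stood at 217 CPM in Ifnar1-SA and 232 CPM in WT and Cxcr3 at 18.1 and 7.03 CPM, while the cells low in both Xcl1 and Gzmb had 48.0 and 34.4 CPM of Cxcr3.

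In Tregs of Ifnar1-SA, a Cxcr3 UMI was present in 27.3% (16.1% to 41.0%) of the 55 cells with Cxcr6 and in 12.3% (9.31% to 15.9%) of the 414 without, after thinning. In WT Tregs the shares were 15% (3.21% to 37.9%) of 20 cells and 14.1% (10.4% to 18.6%) of 304. In CD8 T cells they were 5.82% and 4.72% in Ifnar1-SA and 4.17% and 4.44% in WT, with overlapping intervals. Ifng, the cytokine that induces the CXCR3 ligands, was itself read in CD8 T cells. Cxcr6 was present in 50.5% (43.4% to 57.5%) of Ifnar1-SA CD8 T cells with an Ifng UMI and 39.9% (35.2% to 44.7%) of those without, and in 44.4% and 43.9% of WT cells.

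**Figure D5:**
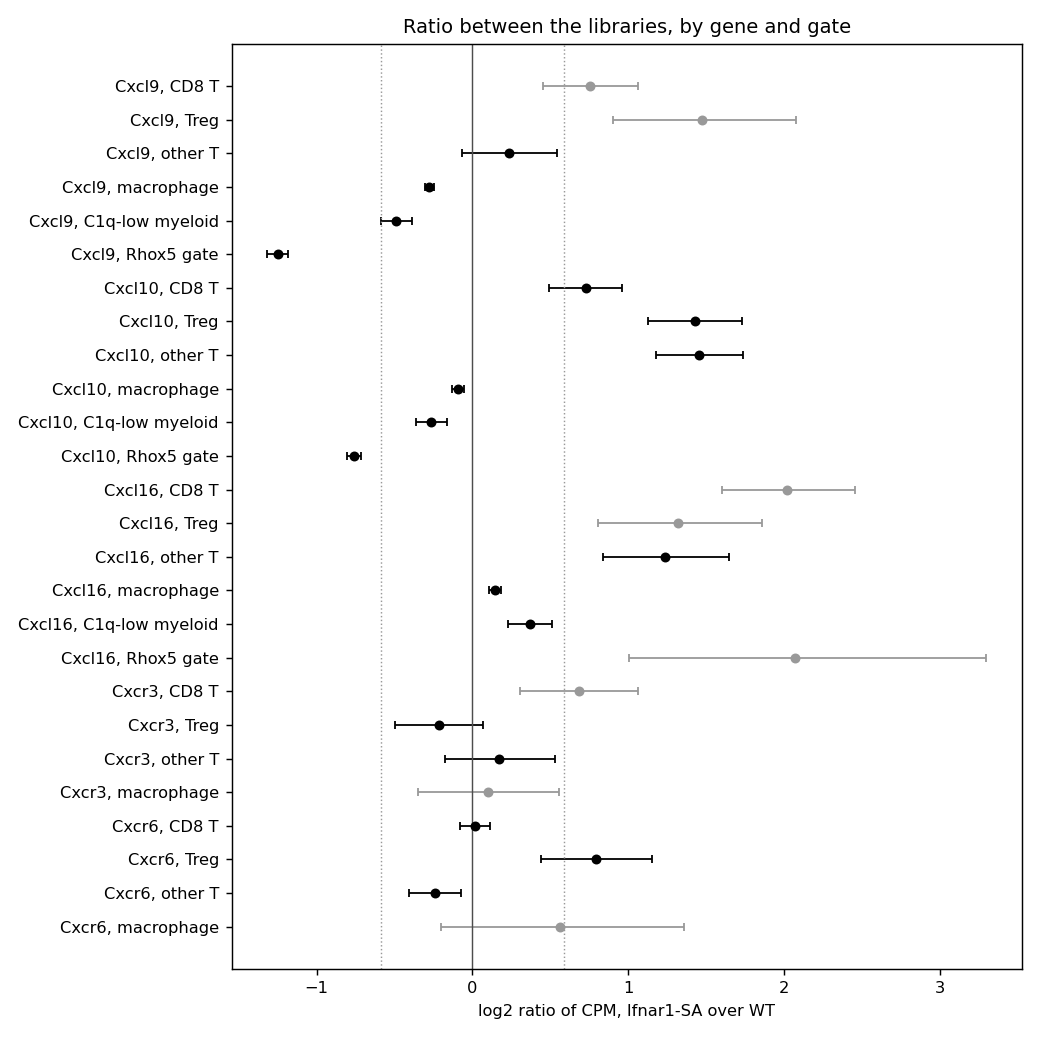
Log2 ratio of CPM, Ifnar1-SA over WT (horizontal axis), for each gene and gate with enough UMIs, with 95% intervals for counting error only, dotted lines at 1.5-fold, and grey points for genes below the measured minimum. The CXCR3 ligands lie left of 0 in the Rhox5 gate and right of 0 in Tregs, and Cxcr6 in CD8 T cells lies at 0.

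Few of the genes that induce the CXCR3 ligands differed by 1.5-fold between the libraries. Of the 15 genes of ligand induction, 8 were measured in CD8 T cells, with a median log2 ratio of 0.21 against 0.00 over all measured genes, and 1 was higher by at least 1.5-fold, against 3.66% of all 2626 measured genes. That gene was Ifng, at 862 CPM in Ifnar1-SA and 278 CPM in WT, a log2 ratio of 1.63 (1.56 to 1.71). In macrophages 11 were measured and none reached 1.5-fold, where 0.922% of all measured genes were higher and 1.32% lower by that much. The median log2 ratio of the 11 in macrophages was 0.08 against 0.06 over all. Stat2, which carries type I interferon signals, stood at 105 CPM in Ifnar1-SA and 77.4 CPM in WT. In Tregs 1 of 11 was higher by at least 1.5-fold, against 4.43% of all measured genes. It was Stat2, at 89.3 CPM in Ifnar1-SA and 50.3 CPM in WT. In the remaining T cells 1 of 12 was higher and 1 lower by that much, against 4.07% and 1.56% of all measured genes. In the C1q-low myeloid gate 1 of 12 was higher by that much, against 5.79%. In the Rhox5 gate 7 were measured, with a median of -0.04 against 0.04 over all. None reached 1.5-fold there, where 0.175% of all measured genes were higher and 1.3% lower by that much. The proteases that release CXCL16 were close to even in macrophages, with Adam10 at 88.8 and 90.3 CPM and Adam17 at 104 and 88.6 CPM.

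Other chemokine receptors in CD8 T cells included 4 measured of 10. Ccr7, which guides cells to lymph nodes, stood at 108 CPM in Ifnar1-SA and 63.8 CPM in WT, and Ccr2, a receptor of inflammatory chemokines, at 78.5 and 47.2 CPM. Both were higher by at least 1.5-fold, where 3.66% of all measured genes were. Cx3cr1 stood at 63.2 and 55.6 CPM. In Tregs 4 of 10 were measured and none reached 1.5-fold, with Ccr2 highest at 549 CPM in Ifnar1-SA and 462 CPM in WT. Of the 3 measured receptor regulators in CD8 T cells, none reached 1.5-fold: Bhlhe40 stood at 379 and 365 CPM, Runx3 stood at 179 CPM in Ifnar1-SA and 261 CPM in WT, and Tbx21, the gene of T-bet, at 66.7 and 65.1 CPM. Of 16 other chemokines, 10 were measured in macrophages, with a median log2 ratio of -0.45 against 0.06 over all measured genes, and 2 were lower by at least 1.5-fold, against 1.32% of all measured genes. These were the monocyte attractant Ccl8, at 1159.7 and 1894 CPM, and the neutrophil attractant Cxcl2, at 181 and 325 CPM. In the C1q-low myeloid gate 5 of 10 were lower by that much, against 3.47% of all measured genes, and 1 was higher, against 5.79%. The median log2 ratio there was -0.42 against 0.05 over all. The 5 were Cxcl2, Ccl2, Ccl8, Ccl12 and Ccl3, and the higher one was Ccl17. CD8 T cells and Tregs went the other way. In CD8 T cells 4 of 5 measured chemokines were higher by at least 1.5-fold, against 3.66% of all measured genes, with a median log2 ratio of 0.93. These were Ccl4, at 2409 CPM in Ifnar1-SA and 1224 CPM in WT, Xcl1, at 1392 and 771 CPM, Ccl3, at 878 and 297 CPM, and Ccl2, at 58.3 and 30.5 CPM. In Tregs 4 of 5 were higher by that much, against 4.43%, with a median of 1.04: Ccl4, at 716 CPM in Ifnar1-SA and 193 CPM in WT, Ccl3, Cxcl2 and Ccl2. The remaining T cells were divided. Of 8 measured there, 1 was higher and 2 were lower by that much, against 4.07% and 1.56% of all measured genes. Their median log2 ratio was 0.35 against 0.01 over all. The macrophage markers that were higher in the same gates are given above with the ligands, and their part in these differences was not tested.

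Across the 6 gates with at least 50 cells and both libraries, 12 points that share libraries and depth, the genes most like each member were found by Pearson's r of log2(CPM + 1), as a description. Cxcl9 ran closest to Lrp1 (0.985), Slamf8, Fosb, Atp6v0b and Ccdc86, and Cxcl10 closest to Clic4 (0.988), Tcf7l2, App, Tns3 and Ccl2. Cxcl16 ran closest to Aif1 (0.997), Lst1, Fcgr2b, Fcgr4 and Spi1. Cxcr3 ran closest to Sdf4 (0.982), Gstt2, Rilpl2, Il2ra and Ikzf2, and Cxcr6 closest to Akap13 (0.991), Prkcq, Pdcd1, Sept6 and Sh2d1a. Among the members r was 0.948 for Cxcl9 with Cxcl10, 0.521 for Cxcl9 with Cxcl16, and 0.849 for Cxcr3 with Cxcr6.

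The Ifnar1-SA library held cells with Xist UMIs and cells with Y-linked UMIs, and the WT library nearly none of the second kind. Among Ifnar1-SA CD8 T cells 461 had only Xist and 134 only Y-linked UMIs, and among WT 979 and 1. Cxcr6 in CD8 T cells stood at 294 CPM in Ifnar1-SA cells with Xist, 287 CPM in Ifnar1-SA cells with Y-linked UMIs and 298 CPM in WT cells with Xist. Cxcl10 in macrophages differed more, at 621 CPM in Ifnar1-SA cells with Xist, 819 CPM in Ifnar1-SA cells with Y-linked UMIs and 699 CPM in WT cells with Xist, so its direction against WT changed with the kind of cell. Cxcl9 in macrophages was lower than in WT in both kinds, at 1068 and 959 CPM in Ifnar1-SA against 1246 CPM in WT cells with Xist. Cxcr6 in Tregs with Xist alone stood at 64.3 CPM in Ifnar1-SA and 36.7 CPM in WT. Animal and genotype cannot be told apart with these libraries.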

How the data were processed

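The authors deposited unnormalized UMI counts for every barcode of both libraries, including empty ones. Per the file headers, Cell Ranger 4 produced them. The submitters' processing notes name mm10 as the build, and how reads were aligned and annotated is not stated there. Barcodes with 1000 or more UMIs, 500 or more genes and mitochondrial UMIs of 10% or less were kept, and held 85.1% of Ifnar1-SA and 85.7% of WT UMIs.

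Gates used UMIs of Cd3e, Cd3g and Trac (at least 2), Cd8a and Cd8b1 (2), Foxp3 (1), C1qa, C1qb and C1qc (20), and Rhox5, Tm4sf1 and Sdc2 (10). No doublet caller was run, and droplets passing several gates formed a class of their own. UMIs were summed per gate and scaled to CPM. The log2 ratio has an exact conditional binomial interval, a CPM an exact Poisson interval, and a share a Clopper-Pearson interval. No test was made, since each group has 1 library. The ratio calculation was tested on simulated data. The 12 alternatives vary purity, filters, scaling, weighting, thinning and the sex-linked split. Named genes were the 5 members, the genes with the highest levels in the pathway lists, and the 5 genes most like each member. Other genes named beside a small count were chosen after their values were seen. Some list members are not reported here by name. Members and lists were chosen with earlier results of these data known. Cells near the limits of a gate were few except for Tregs, where 194 of 504 Ifnar1-SA and 131 of 344 WT cells had 1 Foxp3 UMI. Gene positions are from GENCODE on GRCm38, the assembly of mm10. Python 3.11.15 with numpy 2.4.6, scipy 1.17.1 and pandas 2.3.3 was used.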

Additional observations from a re-analysis of the deposited data

Results flagged for a closer look

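The CXCR3 ligands went in opposite directions in Tregs and in the Rhox5 gate. The log2 ratio of Cxcl9 in Tregs minus that in the Rhox5 gate was 2.72, and the same difference for Cxcl10 was 2.19. These differences were not tested, since each genotype has 1 library. Cxcl9 in the Treg gate, at 33.3 CPM in Ifnar1-SA and 12 CPM in WT, was below the minimum for a measured gene, and in near-empty barcodes it stood at 457 and 520 CPM.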

How the results depend on the processing

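No paired analysis was possible because each genotype has 1 library. Values below are log2 ratios of Ifnar1-SA over WT. The ratio of Cxcl10 in macrophages reversed to 0.20 in Ifnar1-SA cells with Y-linked UMIs against WT. It was -0.17 in cells with Xist only, -0.030 with stricter purity, -0.14 at a maximum of 20000 UMIs, -0.011 at 5% mitochondrial UMIs, -0.15 with median-ratio scaling and -0.14 without the 5 highest cells. Cxcl9 in macrophages was -0.32 with gates as written (mixed droplets kept), -0.33 at 20000 UMIs and at 5% mitochondrial UMIs, -0.22 with Xist only, -0.39 with Y-linked UMIs, -0.34 with median-ratio scaling and -0.33 thinned. Cxcl16 in macrophages was 0.068 with gates as written, 0.021 with Y-linked UMIs and 0.085 with median-ratio scaling. In the Rhox5 gate Cxcl9 was -0.97 with stricter purity, -1.54 at 5% mitochondrial UMIs, -1.12 with cells weighted equally and -1.07 without the 5 highest cells, and Cxcl10 was -0.47, -0.57 and -0.49 with stricter purity, equal weights and thinning. Cxcl16 there was 0.58 with gates as written. Cxcr6 was -0.17 in CD8 T cells with gates as written and 0.41 in Tregs when thinned. With Y-linked UMIs, Cxcr6 in remaining T cells reversed to 0.27 and Cxcr3 there turned to -1.69 (42 cells), Cxcl10 in Tregs reversed to -1.96 (24 cells) and Cxcl10 in CD8 T cells to -0.0091. The cause of these shifts was not tested. Settings that left under 20 cells or no UMI were not run: the Rhox5 gate at a maximum of 20000 UMIs and split by Xist or Y-linked UMIs, and Cxcl16 thinned there. Few UMIs limit Cxcr3 in CD8 T cells, and 1 library per genotype limits every comparison.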
